A study of Mus musculus with 20 samples.

Results

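Sorted microglia were the source of 10 of the 20 libraries of this study. They came from mice with sham surgery or brain injury, and their names fall into 2 forms. In 6 of them the name starts with 13 and ends in an M suffix (sham microglia replicates 1 to 3 and FPI microglia replicates 1 to 3), and these are called the M libraries here. In the other 4 the name starts with 3 and holds the letters J-A (sham replicates 4 and 5 and FPI replicates 4 and 5), and these are called the J-A libraries. Both forms thus hold sham and injured mice, and the form of the name was compared with injury as a covariate. No label says what the forms stand for, so the animals, day of surgery, sort and library preparation behind them cannot be told apart. One FPI astrocyte library also has a name of the M form. It was left out because its label and its RNA (708 CPM of Aqp4, an astrocyte water channel) are those of astrocytes.

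The mice were adult male C57BL/6J animals, each sampled alone without pooling. FPI, or lateral fluid percussion injury, sends a fluid pulse onto the dura through an opening in the left skull, and sham mice had the same craniectomy and connection to the device without the pulse. At day 7 the brain was perfused, the forebrain on the injured side was digested with papain, and cells positive for CD11b with intermediate CD45 were sorted as microglia. That gate sets a range of CD45 and does not by itself exclude every other macrophage. The microglial markers were high in all 10 libraries, with Tmem119 at 566 to 1207 CPM and the chemokine receptor Cx3cr1 at 2099 to 4624 CPM (CPM, counts scaled by library size with TMM factors). Assigned counts ran from 7700165 to 13110857 in the M libraries and from 5623349 to 8655477 in the J-A libraries. Replicates of the same group differed by more than counting noise in every pair. P-values measure the spread between these mice. For the contrast of the name forms they do not take in any spread between the preparations that the forms may stand for.

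Macrophages of the brain's borders, in the meninges and around vessels, share an origin with microglia but carry the mannose receptor Mrc1, the haemoglobin scavenger receptor Cd163 and the clotting factor subunit F13a1, which resting microglia nearly lack. Immediate-early genes such as Fos are switched on within minutes of a stimulus without new protein synthesis. Heat shock proteins are chaperones that respond to misfolded protein.

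The J-A libraries held less RNA of 9 border macrophage genes, among them Mrc1, Cd163 and F13a1, and of 14 immediate-early genes than the M libraries, and more of the chaperone Hspa1b. Of 30 homeostatic microglial genes 0 were called. Of 12559 genes tested, 75 (0.597%) were called between the forms of the name, at an adjusted p under 0.1 in edgeR's quasi-likelihood test and an absolute log2 fold change above 0.6. Of these, 61 (0.486%) were lower in the J-A libraries and 14 (0.111%) were higher. Of the 61, 45 had all 4 J-A libraries below all 6 M libraries. Over all tested genes that held for 143 (1.14%), and 70 genes (0.557%) had all J-A libraries above.

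Of 26 border macrophage genes, 21 had enough counts to be tested. Among these 21, 9 were lower in the J-A libraries, 0 were higher by edgeR or DESeq2, and 1 was higher at an unadjusted p under 0.05. Their median log2 fold change was −2.85, against 0.01 for all tested genes, and 13 had every J-A library below every M library. Most of the 21 passed the filter through the M libraries, where they were high, so these figures do not stand for the whole list. With at least 10 counts asked of every library, 5 genes remained (Mrc1, Siglec1, Lilra5, Gas6 and Stab1), of which Mrc1 was called, and the median was −0.12. In bulk RNA, fewer cells of a type and less RNA per cell cannot be told apart.

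Mrc1 stood at 277, 178 and 276 CPM in the M sham libraries and at 193, 114 and 81.7 CPM in the M FPI libraries. In the J-A libraries it was 19.5 and 11.5 CPM in sham mice and 19.3 and 48.3 CPM after FPI. No J-A library reached the lowest M library, and the level was 7.19-fold lower (log2 fold change −2.85, SE 0.37, edgeR adjusted p = 0.00017). This call was lost with robust empirical Bayes in edgeR. Cd163 was 58.9, 37.2 and 56.7 CPM in M sham libraries, 15.7, 23.3 and 18.5 CPM in M FPI libraries, and 0.335, 2.72, 1.25 and 1.90 CPM in J-A sham 4 and 5 and FPI 4 and 5. The log2 fold change was −4.41 (SE 0.42, edgeR adjusted p = 3.53e-06), and again no library of the one form overlapped the other. F13a1 had 84.2, 49.9 and 91.5 CPM in M sham libraries and 47.5, 31.9 and 22.6 CPM in M FPI libraries. Its J-A values were 3.35, 2.53, 0.470 and 7.73 CPM (log2 fold change −3.78, SE 0.45, edgeR adjusted p = 6.7e-05). The M libraries thus varied several-fold among themselves in these genes, but their range stayed above that of the J-A libraries.

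The other called members were Pf4, a platelet-type chemokine, with a log2 fold change of −5.17, the lectin Clec10a (−3.81), the carbonyl reductase Cbr2 (−3.44), the scavenger receptors Cd36 (−3.20) and Colec12 (−2.12), and the hyaluronan receptor Lyve1 (−2.77). Pf4 rested on 10 counts in all J-A libraries together. The calls for Cbr2, Lyve1 and Colec12 were lost when single libraries were left out. Fcna and Pla2g2d were not among the 9 called border macrophage genes. They had 133 and 129 counts over the M libraries and 0 in the J-A libraries. Set against a floor of 3 counts over the 4 J-A libraries, they were at least 22.3-fold and 21.6-fold lower. This floor allows for counting noise alone and not for the spread between mice.

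Not every listed gene differed. The scavenger receptor Stab1 was 736 to 946 CPM in M libraries and 769.9 to 864 CPM in J-A libraries, a log2 fold change of −0.10 (SE 0.11). The growth factor Gas6 had a log2 fold change of −0.11 (SE 0.14). Both are also expressed by microglia, and Stab1 alone made up 54.1 to 73.0% of the summed level of the list in M libraries and 70.02 to 84.3% in J-A libraries. For the whole list the sum was 1208 to 1646 CPM in M libraries and 1009 to 1100 CPM in J-A libraries, 1.38-fold lower by the means. Siglec1, a sialic acid receptor that interferon induces, was not called (−0.98, SE 0.37), nor were the folate receptor Folr2 (−0.69) and Lilra5 (0.69).

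**Figure D1:**
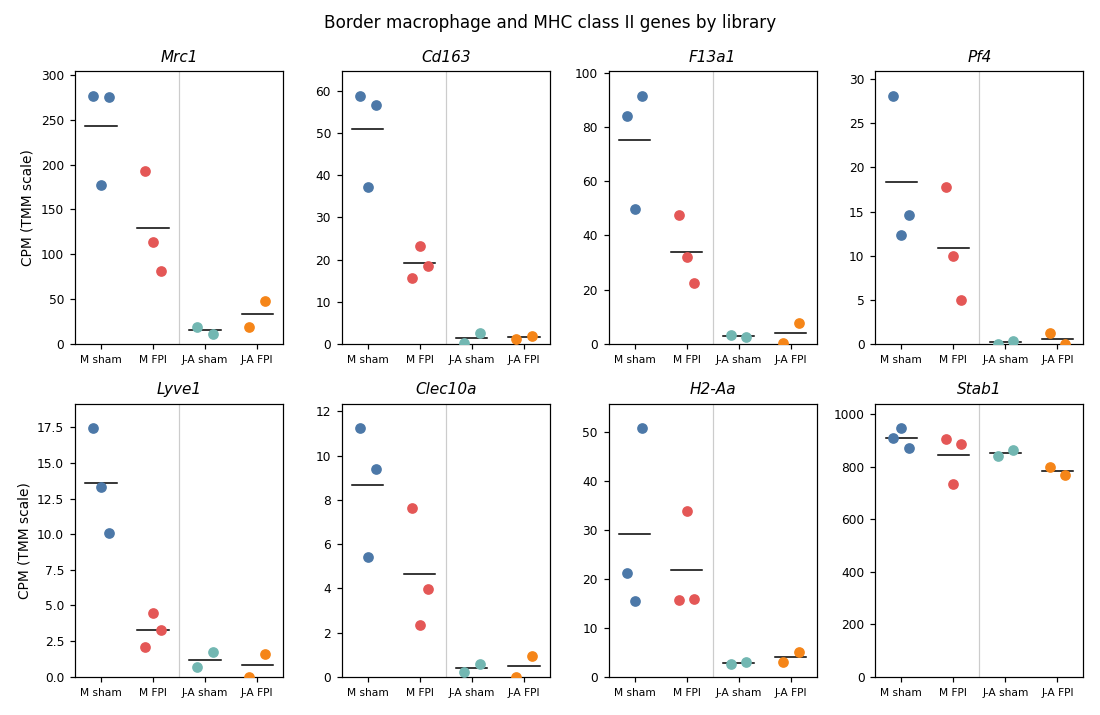
Levels of 8 border macrophage and MHC class II genes in CPM (TMM scale, linear axes from 0) in each of the 10 microglia libraries, with M libraries left and J-A libraries right of the grey line in each panel; points are libraries and black bars are group means. The J-A points for Mrc1, Cd163 and F13a1 lie below every M point, while those for Stab1 overlap.

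The gap was present in sham and injured mice fitted apart, with 12 border macrophage genes called lower in sham libraries alone and 2 in FPI libraries alone. For Mrc1 the log2 fold change was −3.93 in sham mice and −1.94 in injured mice, and this difference did not pass the test (2.01, SE 0.49, edgeR adjusted p = 0.208). Over the 21 tested genes the median injury effect was −0.72 in M and 0.54 in J-A libraries. The effect was larger in J-A libraries for 18 genes and smaller for 3. At an unadjusted p under 0.05 these counts were 6 and 0, where 4.71% of all genes were larger. For this difference edgeR and DESeq2 called 0, and edgeR called 4 with every gene kept and 1 without FPI replicate 1. The median difference was 1.57, and 0.61 to 1.71 with 1 library left out. Within the M libraries, Cd163 was lower after FPI (−1.41, SE 0.34, edgeR adjusted p = 0.0311) and Siglec1 was higher (1.35, SE 0.38, edgeR adjusted p = 0.0648). The Cd163 call was lost without sham replicate 1 or 3, and the Siglec1 call in DESeq2, with robust empirical Bayes, and without sham replicate 1, sham replicate 2 or FPI replicate 1. Within the J-A libraries Siglec1 rose too, from 7.38 and 3.88 CPM in sham mice to 33.4 and 54.5 CPM (2.92, SE 0.52, edgeR adjusted p = 0.0113). This J-A call was lost without sham replicate 4, sham replicate 5 or FPI replicate 5.

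MHC class II genes present antigen to CD4 T cells and are strongly expressed by border macrophages and dendritic cells. Of 9 tested dendritic cell and MHC class II genes, 4 were lower in the J-A libraries, and these 4 had no overlap between the forms. H2-Aa, the alpha chain of I-A, was 15.4 to 50.8 CPM (median 18.6) in M libraries and 2.68, 3.11, 2.98 and 5.16 CPM in J-A libraries (log2 fold change −2.85, SE 0.39, edgeR adjusted p = 0.000332). H2-Eb1 (−3.30), H2-Ab1 (−2.06) and the invariant chain Cd74 (−1.66) were the others. The peptide-loading genes H2-DMa (0.17) and H2-DMb1 (0.16) were not called.

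Genes outside the lists included Dab2, an endocytic adaptor, at 47.5 to 115.9 CPM in M libraries and 15.2 to 19.6 CPM in J-A libraries (log2 fold change −2.08, SE 0.19, edgeR adjusted p = 3.53e-06). From the list of disease-associated microglia, the lipoprotein gene Apoe (−1.69, SE 0.25) and the lysozyme gene Lyz2 (−1.31, SE 0.21) were lower in J-A libraries. Macrophages and activated microglia both express these genes. Apoe was 1901, 1261 and 2208 CPM in M sham libraries against 492 and 480.3 CPM in J-A sham libraries, and 14520, 11670 and 4975 CPM in M FPI libraries against 2260 and 5013 CPM in J-A FPI libraries. The ranges overlapped after injury and were apart in sham mice, and the call was lost in FPI libraries alone and without the injury term. The motor protein gene Kif5a, best known from neurons, fell by 3.04 on the log2 scale (SE 0.40), while neuron markers as a list were at 6.18 to 17.3 CPM in M and 7.16 to 13.6 CPM in J-A libraries. Of 4 tested neuron markers 0 were called in edgeR or DESeq2 and 0 had an unadjusted p under 0.05. The part of other neuronal RNA in the Kif5a result was not tested.

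Among markers of blood cells, the summed monocyte list was 34.2 to 215.7 CPM in M and 32.6 to 89.5 CPM in J-A libraries. Of 6 tested monocyte genes 0 were called by edgeR or DESeq2, 1 was lower at an unadjusted p under 0.05, and the median was −0.60. Of 5 tested neutrophil genes, edgeR called 1 lower (Lcn2, with 174 counts over the M libraries and 4 over the J-A libraries) and DESeq2 called 4, 4 were lower at an unadjusted p under 0.05, and the median was −3.10. The granule and calcium-binding protein genes Ngp, Ltf and S100a9 had 260, 210 and 213 counts over the M libraries and 5, 29 and 12 over the J-A libraries. Like Lcn2, they passed the filter through the M libraries, where they were high. The calls and the median thus do not stand for the whole list of 14 genes. The summed neutrophil list was 489.5 to 716 CPM in M and 545.6 to 662.5 CPM in J-A libraries and was mostly the receptor gene Csf3r (470.0 to 695 CPM and 544.5 to 659 CPM), which microglia also express. The part of neutrophil RNA in the border macrophage result was not tested.

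All 40 immediate-early genes were tested. Of these, 14 were lower in the J-A libraries, 0 were higher in edgeR or DESeq2 (1 at an unadjusted p under 0.05), and the median log2 fold change was −0.60. The same number, 14, had every J-A library below every M library. The called genes cover the transcription factors Fos, Fosb, Jun, Egr1, Atf3, Nr4a1, Klf4, Klf6 and Csrnp1, the phosphatase Dusp1, the RNA-binding protein Zfp36, the NF-kB regulator Nfkbiz, the signalling regulator Rgs1 and Ier2.

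The start regions of 4 of the most altered genes are shown because many immediate-early genes are controlled from there, often through cyclic AMP response elements (CRE). Each runs from 250 bases before to 50 bases after the annotated start (RefSeq, GRCm38.p6), and capitals mark TGACG, the CRE core, on either strand (CGTCA when read on the other). Fos lies at chr12:85473640-85473939 on the plus strand, with the core 129 and 66 bases before the start. Fosb lies at chr7:19309996-19310295, Dusp1 at chr17:26508423-26508722 and Atf3 at chr1:191183284-191183583, all on the minus strand.
Fos: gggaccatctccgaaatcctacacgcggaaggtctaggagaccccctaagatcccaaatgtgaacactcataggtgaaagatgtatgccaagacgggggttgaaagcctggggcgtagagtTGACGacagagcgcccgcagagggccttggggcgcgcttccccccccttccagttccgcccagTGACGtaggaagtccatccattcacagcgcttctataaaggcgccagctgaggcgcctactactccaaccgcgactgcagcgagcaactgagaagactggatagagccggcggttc
Fosb: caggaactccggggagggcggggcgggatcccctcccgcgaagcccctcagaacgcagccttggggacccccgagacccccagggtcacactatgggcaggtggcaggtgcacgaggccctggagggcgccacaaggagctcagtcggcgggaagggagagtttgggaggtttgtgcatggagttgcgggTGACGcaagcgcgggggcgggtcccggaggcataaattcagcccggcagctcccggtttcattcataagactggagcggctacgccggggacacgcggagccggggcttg
Dusp1: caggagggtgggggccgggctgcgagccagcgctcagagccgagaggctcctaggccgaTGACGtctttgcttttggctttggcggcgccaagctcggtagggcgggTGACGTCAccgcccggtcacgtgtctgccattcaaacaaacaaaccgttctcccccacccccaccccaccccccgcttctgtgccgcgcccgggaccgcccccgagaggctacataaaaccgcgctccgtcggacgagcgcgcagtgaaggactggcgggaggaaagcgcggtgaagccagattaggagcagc
Atf3: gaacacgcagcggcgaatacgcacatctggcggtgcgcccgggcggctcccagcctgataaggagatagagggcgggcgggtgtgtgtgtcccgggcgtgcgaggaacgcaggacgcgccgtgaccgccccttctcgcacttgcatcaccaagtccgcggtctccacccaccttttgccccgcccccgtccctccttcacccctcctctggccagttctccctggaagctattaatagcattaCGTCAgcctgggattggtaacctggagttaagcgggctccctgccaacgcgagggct
Dusp1 holds 3 matches, at 191, 143 and 140 bases before the start, where the last 2 overlap in the full palindrome TGACGTCA. Of the 14 called immediate-early genes, 10 had a window and 7 of these held the core, and of the 26 others, 23 had a window and 12 held it. Over all 27025 genes with a window, 6228 held it. The palindrome stood in 2.03% and the AP-1 site TGAGTCA in 5.95% of all windows, and each occurred in 1 of the 10 called genes.

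Fos, the founding member of the family, was 329 to 423 CPM (median 375) in M libraries. In the J-A libraries it was 153 and 115 CPM in sham mice and 128 and 98.9 CPM after FPI. The forms did not overlap, and the spread among the M libraries was small (373 ± 31.0 CPM, SD, n = 6, against 124 ± 22.7 CPM, SD, n = 4). Fos was 3.03-fold lower in J-A libraries (log2 fold change −1.60, SE 0.13, edgeR adjusted p = 1.63e-06).

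Its partner Fosb was 126.7 to 210.4 CPM in M libraries and 51.9, 67.8, 61.2 and 38.5 CPM in J-A libraries (−1.65, SE 0.18, edgeR adjusted p = 1.38e-05). Dusp1, which switches MAP kinases off, was 233 to 309.6 CPM against 109.9, 94.4, 99.9 and 72.6 CPM (−1.46, SE 0.14, edgeR adjusted p = 3.53e-06). Atf3, a stress-induced repressor, was 159 to 341 CPM against 75.03, 60.4, 90.3 and 83.3 CPM (−1.45, SE 0.15, edgeR adjusted p = 9.38e-06). All 3 genes were without overlap, and leaving out any single library ended none of the 3 calls.

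The remaining called genes had log2 fold changes from −1.34 (Klf4) through −1.23 (Egr1), −1.14 (Zfp36) and −1.10 (Nr4a1) to −0.64 (Jun). Jun was 1393 to 2103 CPM in M libraries and 697 to 1288 CPM in J-A libraries, and its call was lost without sham replicate 2 or FPI replicate 5. Junb (−0.56), Fosl2 (0.05), Ier5 (0.01), Rhob (0.10) and Myc (0.55) were not called. In sham libraries alone 8 of the 40 genes were called lower, and in FPI libraries alone 8.

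Few early genes were called for injury. In M libraries Fos differed by 0.03 on the log2 scale between FPI and sham mice (SE 0.15), and in J-A libraries by −0.25 (SE 0.19). Of the 40 genes, 1 was called after FPI in M libraries, Atf3 (0.61, SE 0.17, edgeR adjusted p = 0.063). This call was lost with the M libraries fitted alone, with a replicate block (0.58), and without sham replicate 1, sham replicate 3 or FPI replicate 3. In J-A libraries 0 were called in edgeR or DESeq2, 1 was called lower in edgeR with every gene kept, and 6 were lower at an unadjusted p under 0.05. The median effect there was −0.25, but −0.50 without FPI replicate 4 and −0.005 without FPI replicate 5.

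Fam71a and Gm26802 are poorly known transcripts that lie beside early genes. The neighbours of the other called genes outside the lists were not examined. Fam71a was 14.8 to 52.9 CPM in M libraries and 0 to 3.29 CPM in J-A libraries (log2 fold change −4.04, SE 0.50, edgeR adjusted p = 8.7e-05), and it lies 5478 bases from Atf3 on the same strand of chromosome 1. Gm26802 had 256 counts in the M libraries and 4 in the J-A libraries (2.98 to 6.32 CPM and 0 to 0.335 CPM), and it lies 1925 bases from Fosb on the same strand of chromosome 7. Whether these reads belong to separate transcripts was not tested.

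Of 20 activation cytokines, the chemokine gene Ccl3 was lower in J-A libraries (−0.97, SE 0.18, edgeR adjusted p = 0.00918), and the list had no other call in edgeR and 2 lower in DESeq2. At an unadjusted p under 0.05, 7 of the 20 were lower and 0 higher, and the median was −0.32. The clock gene Per1, which is also an early response gene, was lower (−0.85, SE 0.19, edgeR adjusted p = 0.0512), and the other 14 tested circadian genes were not called.

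**Figure D2:**
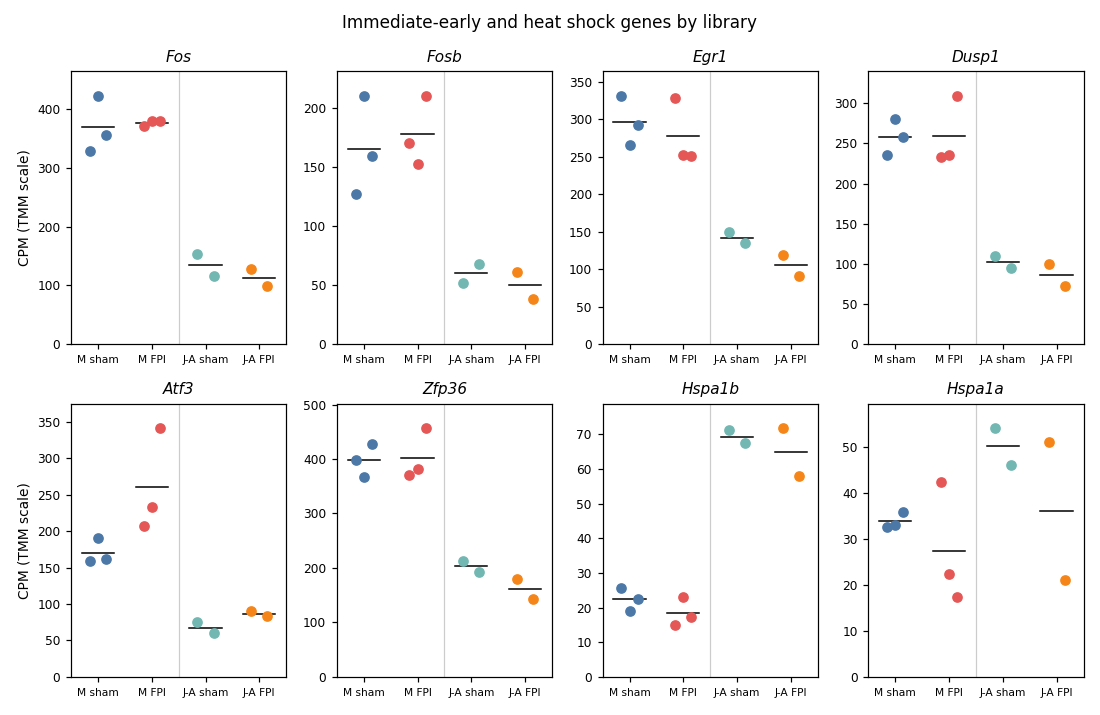
Levels of 6 immediate-early genes and of Hspa1b and Hspa1a in CPM (TMM scale, linear axes from 0) in each of the 10 libraries, with M libraries left and J-A libraries right of the grey line; points are libraries and black bars are group means. J-A points lie below all M points for the 6 early genes and above all M points for Hspa1b.

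Heat shock genes differed from the early genes in their calls. Of 20 tested, 1 was called between the forms, Hspa1b, an inducible cytosolic chaperone of the HSP70 family, and it was higher in the J-A libraries. It was 14.9 to 25.6 CPM (median 20.8) in M libraries, and 71.2, 67.4, 71.7 and 58.1 CPM in J-A libraries. The 4 J-A values lay close together and well above the M values, with a fold of 3.31 (log2 fold change 1.73, SE 0.17, edgeR adjusted p = 4.38e-06).

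Hspa1a encodes nearly the same protein 9951 bases away on the same strand. Its log2 fold change was 0.48 (SE 0.24, edgeR adjusted p = 0.782), with 54.1, 46.2, 51.2 and 21.2 CPM in J-A libraries and 17.5 to 42.3 CPM in M libraries. The start regions are printed because they show how alike the genes are. Hspa1b lies at chr17:34959189-34959488 and Hspa1a at chr17:34972107-34972406, both on the minus strand (RefSeq, GRCm38.p6), and capitals mark the 4 of 300 positions at which they differ.
Hspa1b: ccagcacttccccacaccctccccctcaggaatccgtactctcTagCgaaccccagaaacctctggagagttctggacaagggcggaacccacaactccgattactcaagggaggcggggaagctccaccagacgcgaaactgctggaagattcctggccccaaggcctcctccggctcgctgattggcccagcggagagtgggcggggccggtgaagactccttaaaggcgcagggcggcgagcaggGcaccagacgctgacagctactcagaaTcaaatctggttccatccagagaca
Hspa1a: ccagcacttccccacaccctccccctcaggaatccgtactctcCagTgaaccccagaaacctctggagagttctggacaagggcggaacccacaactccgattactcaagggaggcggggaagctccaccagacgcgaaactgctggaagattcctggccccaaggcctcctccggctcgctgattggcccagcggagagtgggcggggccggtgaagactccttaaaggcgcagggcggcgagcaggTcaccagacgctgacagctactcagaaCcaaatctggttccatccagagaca
Reads shared by such copies may be split between them or dropped in counting, so the single-gene values are uncertain. The sum of both was 34.7 to 58.3 CPM in M libraries and 79.2 to 125.3 CPM in J-A libraries, again without overlap, and 2.16-fold higher by the means.

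The constitutive chaperones Hspa8 (−0.07, SE 0.17) and Hsp90aa1 (−0.21, SE 0.12) and the co-chaperone Dnajb1 (−0.13, SE 0.20) were not called. Hspb1 had a log2 fold change of 1.69 without being called. The list's median was −0.13, with 5 genes higher and 15 lower in J-A libraries. At an unadjusted p under 0.05, 1 was higher and 3 were lower. Of 16 tested genes of the integrated and oxidative stress responses, 0 were called in edgeR or DESeq2, 1 was lower at an unadjusted p under 0.05, and the median was 0.00. Among them Ddit3, a transcription factor of endoplasmic reticulum stress, was at −0.30 (SE 0.27), and Hmox1, which degrades haem, at 0.36 (SE 0.31).

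Of the 14 genes higher in J-A libraries, 8 were not protein coding, against 2 of the 61 lower genes. The share over all tested genes is not given here. Gm42418, a transcript that overlaps ribosomal RNA sequence, was 7838 to 10540 CPM in M libraries and 14930, 22610, 17490 and 13760 CPM in J-A libraries (log2 fold change 0.92, SE 0.14, edgeR adjusted p = 0.00076). Lars2, a mitochondrial leucyl-tRNA synthetase gene that also attracts ribosomal reads, rose by 1.01 (SE 0.15, edgeR adjusted p = 0.000794). Both were without overlap between the forms.

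Of 12 tested nuclear and structural RNAs, 5 were higher, and the nuclear RNA Neat1 was lower (−0.99, SE 0.21, edgeR adjusted p = 0.0364). The Neat1 call was lost in sham libraries alone and without sham replicate 5, FPI replicate 4 or FPI replicate 5. With 1 library left out, 3 to 6 of these RNAs were called higher. Malat1, another nuclear RNA, was at −0.04 (SE 0.17). The signal recognition particle RNA Rn7s1 was higher (1.64, SE 0.40, edgeR adjusted p = 0.0851), although the forms overlapped. Protein-coding genes outside the mitochondrial genome took 75.4 to 79.7% of counts in M libraries and 68.4 to 74.3% in J-A libraries. Gm23935, annotated as a miRNA gene, took 9.46 to 15.6% of counts in M libraries and 14.0 to 19.6% in J-A libraries. Scaling on raw totals in place of TMM moved the median gene by −0.12. Across 12432 genes, exon length and the series effect had a Spearman rho of −0.18, given as a description. The part of RNA composition in any result above was not tested.

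Genes that define resting microglia were not called between the forms. Of 30 homeostatic genes, 0 were called in edgeR or DESeq2, 4 were higher and 1 lower at an unadjusted p under 0.05, and the median log2 fold change was 0.18. Their sum was 35170 to 55530 CPM in M and 44830 to 57850 CPM in J-A libraries. Of 62 interferon response genes, 0 were called in edgeR, 1 was lower in DESeq2, and 1 was higher and 5 lower at an unadjusted p under 0.05 (median 0.06). Of 28 genes of disease-associated microglia, Apoe and Lyz2 were the 2 lower in edgeR, DESeq2 also called 2 lower, and the median was 0.10. Astrocyte markers had 0 of 18 called in either tool and 4 lower at an unadjusted p under 0.05, with a sum of 361 to 774 CPM in M and 346 to 475 CPM in J-A libraries. Endothelial markers had 0 of 13 called in either tool and 0 at an unadjusted p under 0.05.

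**Figure D3:**
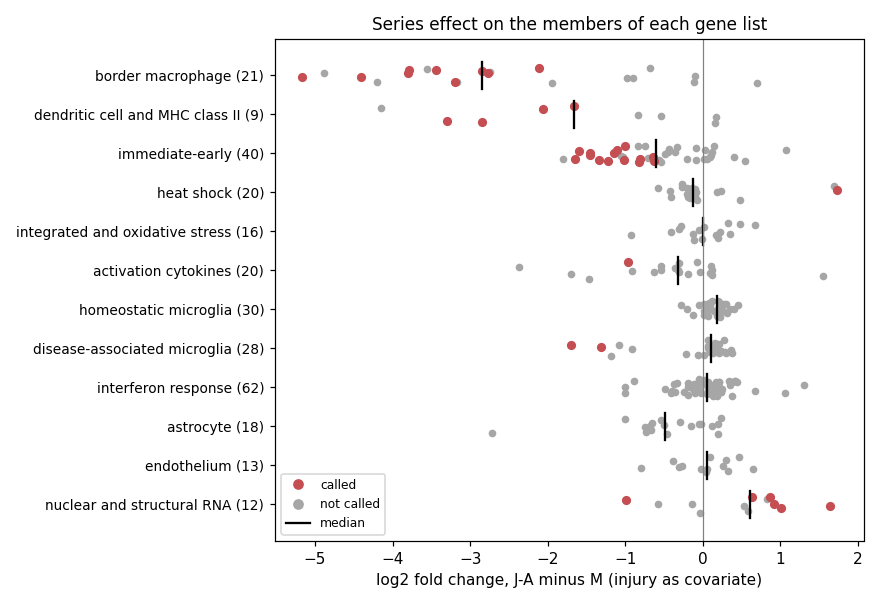
Log2 fold change between the name forms (J-A minus M, injury as covariate, horizontal axis) for the tested members of gene lists, with the number tested in brackets; each point is 1 gene, red where called, and the black bar is the list median. Called border macrophage genes lie between −5.17 and −2.12 and called immediate-early genes between −1.65 and −0.64, and no homeostatic gene is red.

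The injury effect was then estimated within each form of the name, with all 10 libraries sharing one estimate of the spread. In M libraries, 3 against 3, 399 genes were called (3.18%), 291 higher after FPI (2.32%) and 108 lower (0.86%). In J-A libraries, 2 against 2, 62 genes were called (0.494%), all of them higher. The count of lower genes there was 0 in edgeR, 48 in DESeq2, and 582 at an unadjusted p under 0.05. In 9 sets of M libraries cut to 2 against 2, 167 to 357 genes were called in M libraries (median 242) and, in the same fits, 58 to 144 in J-A libraries (median 71). The median standard error was 0.30 in M and 0.38 in J-A libraries.

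The J-A count rested on single libraries. It was 0 without sham replicate 4, 4 without sham replicate 5, 1 without FPI replicate 5 and 218 without FPI replicate 4. Through the shared spread it was also 95 without the M library FPI replicate 2 and 156 without FPI replicate 3. The M count was 227, 264 and 232 without sham replicates 1, 2 and 3.

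Genes that rose in M libraries mostly had the same sign in J-A libraries, with smaller values. Over all tested genes 50.1% had the same sign in both. Of the 291, 246 had the same sign (84.5%), and their median log2 fold change was 1.26 in M and 0.72 in J-A libraries. Of the 108 that fell in M libraries, 58 had the same sign (53.7%), with medians of −0.85 and −0.05. The first value of each pair is from the libraries that chose the genes. Of the 62 genes called in J-A libraries, 61 had the same sign in M libraries, with medians of 2.05 in J-A and 1.61 in M libraries, and 46 were called in both. The 2 contrasts share no library.

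Interferon response genes rose in both. Of 62, 45 were called higher in M and 23 in J-A libraries, and none was lower in either by edgeR or in J-A libraries by DESeq2. The medians were 1.57 and 1.22. All FPI libraries lay above all sham libraries for 52 of 62 genes in M libraries, against 9.16% of all genes, and for 54 of 62 in J-A libraries, against 21.2%. Oasl2, an antiviral gene related to oligoadenylate synthetases, went from 12.3, 3.14 and 11.7 CPM in M sham libraries to 99.5, 69.2 and 42.6 CPM after FPI (log2 fold change 3.00, SE 0.41, edgeR adjusted p = 0.000156). In J-A libraries it went from 11.3 and 7.19 CPM to 45.6 and 104.6 CPM (3.00, SE 0.51, edgeR adjusted p = 0.0103). FPI and sham libraries did not overlap in either form.

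Genes of disease-associated microglia also rose in both, with 16 of 28 called in M and 8 in J-A libraries and medians of 0.87 and 0.89. The receptor tyrosine kinase Axl was 53.8, 22.9 and 49.1 CPM in M sham and 379, 240.0 and 240.1 CPM in M FPI libraries (2.78, SE 0.25, edgeR adjusted p = 1.58e-06), and 48.4 and 57.1 CPM against 182 and 239 CPM in J-A libraries (2.00, SE 0.30, edgeR adjusted p = 0.00491). The lipase Lpl rose by 3.5 and 2.35, the glycan receptor Clec7a by 2.55 and 1.37, and Apoe by 2.54 and 2.9 on the log2 scale in M and J-A libraries. Insulin-like growth factor gene Igf1 rose by 1.59 (SE 0.41) in M and 4.07 (SE 0.60) in J-A libraries, and the difference did not pass the test (edgeR adjusted p = 0.307). Lgals3bp (1.84 and 2.09) and Ifi204 (2.58 and 2.32) were among the 5 J-A genes of smallest p.

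Of 30 homeostatic genes, 7 were called lower after FPI in M libraries and 0 in J-A libraries in either tool, where 3 were higher and 1 lower at an unadjusted p under 0.05, and the medians were −0.38 and 0.09. All M FPI libraries lay below all M sham libraries for 20 of the 30 genes, against 9.79% of all tested genes. In J-A libraries this held for 6 of 30, against 21.7%, and 9 had both FPI libraries above. In edgeR 0 homeostatic genes passed the test for a difference between the forms, which 2 of 12559 genes (0.0159%) did. DESeq2 called 9 of 30, all with the larger value in J-A libraries, and edgeR called 5 with every gene kept, 4 without FPI replicate 2 and 3 without FPI replicate 4. At the main settings 14 of 30 had a larger effect in J-A libraries at an unadjusted p under 0.05. Over all genes that share was 4.71%, and 10.4% with both directions.

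Other signals moved with injury too. In M libraries the summed monocyte list was 34.2 to 68.1 CPM in sham and 72.4 to 215.7 CPM in FPI mice. There 2 of 6 genes were called higher, the matrix gene Fn1 (2.14) and the membrane-binding protein gene Anxa2 (2.17). In J-A libraries it was 32.6 and 42.6 CPM against 42.6 and 89.5 CPM, with 0 called in edgeR or DESeq2 and 2 higher at an unadjusted p under 0.05. The mitochondrial genome took 4.24 to 5.46% of counts in M sham and 6.66 to 8.37% in M FPI libraries, without overlap. In J-A libraries it took 4.89 and 5.20% in sham and 6.62 and 5.85% in FPI mice, also without overlap. Their part in the homeostatic values was not tested.

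The ADP receptor P2ry12 shows the pattern. It was 2213, 1852 and 1987 CPM in M sham libraries and 1099, 1086 and 794 CPM in M FPI libraries (−1.02, SE 0.15, edgeR adjusted p = 0.000455). In J-A libraries it was 1501 and 1514 CPM in sham mice and 1463 and 1961 CPM after FPI (0.18, SE 0.18, edgeR adjusted p = 0.796). The difference of the effects was 1.21 (SE 0.24, edgeR adjusted p = 0.126). It did not pass in edgeR at the main settings, though it did in DESeq2, under both other filters on low counts, and with FPI replicate 2 or FPI replicate 4 left out. J-A sham libraries lay below the M sham libraries and above the M FPI libraries.

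The related receptor P2ry13 (−1.09 in M and −0.09 in J-A libraries), the fructose transporter Slc2a5 (−1.05 and −0.14) and Tmem119 (−0.82 and −0.06) had like values. The semaphorin Sema4b (−1.78 and −0.32) and the signalling scaffold Bank1 (−1.49 and −0.38) led the fallen genes of M libraries. Of these 5 differences 0 passed in edgeR, and all 5 passed in DESeq2.

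The 2 genes that did pass were Csf1 and Gfap. Csf1, the growth factor on which microglia depend, rose in M libraries from 38.7, 32.4 and 45.4 CPM to 127.0, 123 and 184 CPM (1.90, SE 0.19, edgeR adjusted p = 6.72e-06). In J-A libraries it was 52.8 and 63.9 CPM in sham mice and 67.2 and 52.6 CPM after FPI (0.04, SE 0.23, edgeR adjusted p = 0.976), and the difference of the effects was −1.86 (SE 0.30, edgeR adjusted p = 0.0423). Gfap, the intermediate filament of astrocytes, rose from 3.36, 3.85 and 1.03 CPM to 53.5, 98.9 and 26.7 CPM in M libraries and was 13.2 and 10.1 CPM against 14.6 and 18.3 CPM in J-A libraries. Its difference was −3.92 (SE 0.66, edgeR adjusted p = 0.0423). Both calls were lost without sham replicate 4, sham replicate 5 or FPI replicate 5, of the J-A libraries in each case. DESeq2 called Csf1 too and gave Gfap no adjusted p.

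Astrocyte markers were also read as a list, which holds Gfap itself, so the values that follow include it. Their sum was 361 to 501 CPM in sham and 471 to 774 CPM in FPI mice of the M libraries, and 346 to 475 CPM and 407 to 418 CPM in the J-A libraries. Of 18, 4 were called higher after FPI in M libraries and 0 in J-A libraries by either tool (1 lower at an unadjusted p under 0.05), with medians of 0.94 and −0.09. The defining water channel Aqp4 was not at 0 in any library (3.99 to 28.3 CPM). The part of astrocyte RNA in the Gfap value was not tested.

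**Figure D4:**
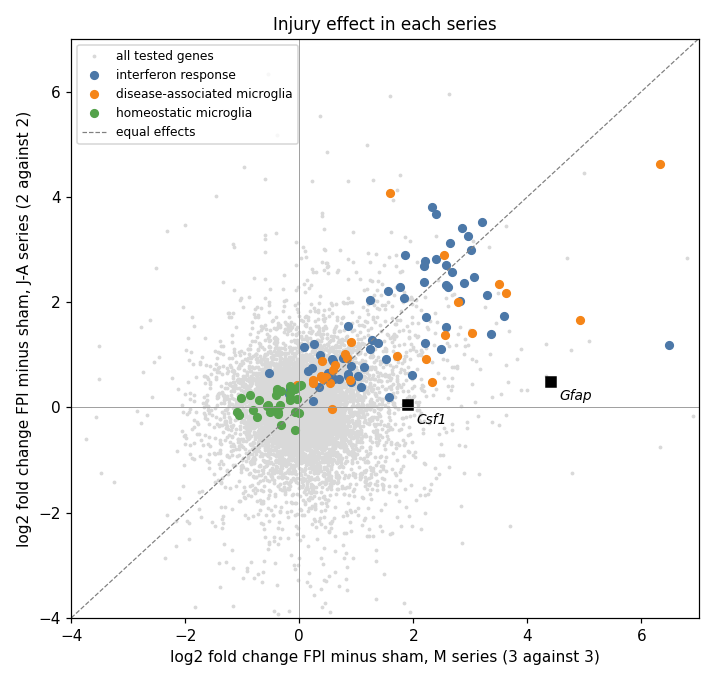
Injury effect of each tested gene in M libraries (horizontal axis, log2 fold change FPI minus sham, 3 against 3) and in J-A libraries (vertical axis, 2 against 2), with gene lists in colour and the dashed line marking equal effects; 71 genes lie outside the axes. Interferon genes lie above 0 on both axes for most genes, and homeostatic genes lie mainly left of 0 and near 0 on the vertical axis.

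**Figure D5:**
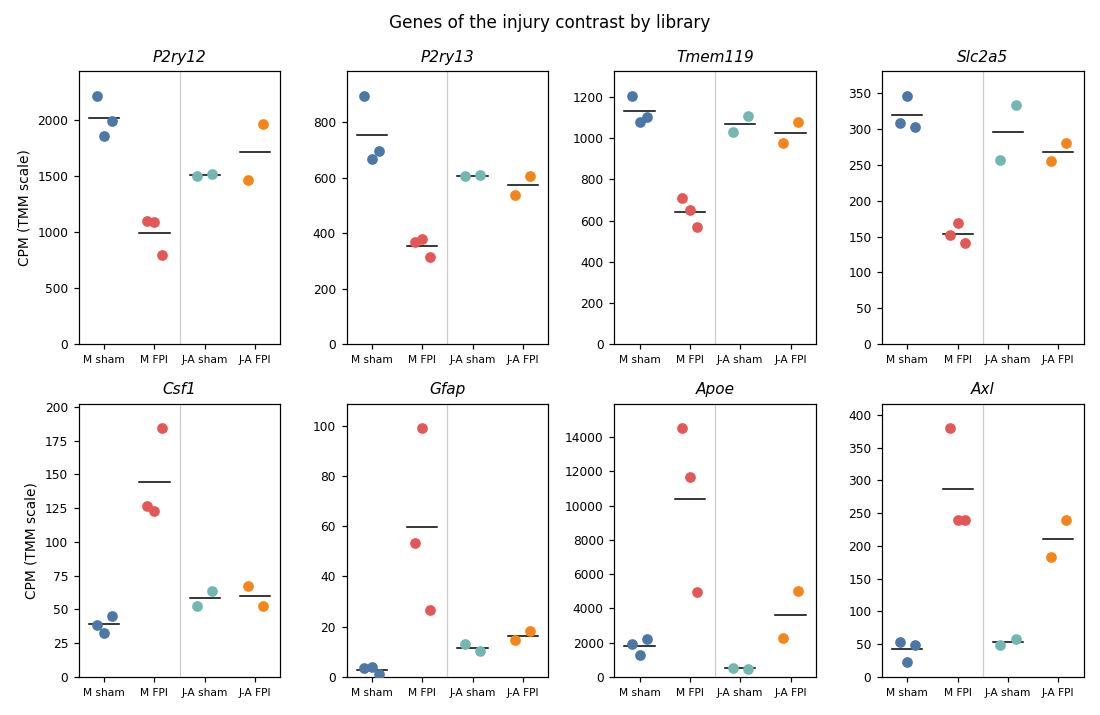
Levels of 8 genes of the injury contrast in CPM (TMM scale, linear axes from 0) in each of the 10 libraries, with M libraries left and J-A libraries right of the grey line; points are libraries and black bars are group means. P2ry12, Tmem119 and Csf1 separate sham from FPI mice among M points and not among J-A points, while Axl and Apoe separate them in both.

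With the forms fitted together and the form as a term, 311 genes were called for injury (2.48%), 281 higher (2.24%) and 30 lower (0.239%), and without the term 282 were called. The count was 193 without FPI replicate 2.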

How the data were processed

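RNA of sorted mouse microglia was measured in 10 libraries, grouped by the form of the library name and by injury from the labels. The deposited values are whole-number counts of reads per gene, without normalization, for 39017 Ensembl identifiers. The authors' processing notes name HISAT2 2.1.0, featureCounts and GRCm38.p6 (mm10). Names and positions came from GENCODE M21 by identifier, which held 99.8% of the microglia counts. Total counts per library were 5623349 to 13110857, so genes with few counts are imprecise.

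Genes were filtered with filterByExpr, scaled by TMM and tested with the quasi-likelihood test of edgeR 4.0.16 in R 4.3.3 (limma 3.58.1), with Benjamini-Hochberg adjustment over 12559 genes. Calls needed an absolute log2 fold change above 0.6 and an adjusted p below 0.1, and for the interaction the latter alone. The name form was tested with injury as a covariate, and injury within each form in 1 model with their interaction. The fits were tested on simulated data. Levels are CPM on the TMM scale. A count of 0 was set against a floor of 3 counts over the group. Python 3.11.15 made the tables and figures, and start regions are RefSeq's on GRCm38.p6.

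The members, gene lists and comparisons were chosen with earlier results of these data known. Named genes were the border macrophage, immediate-early, heat shock and stress lists, the 10 called genes of smallest p in each direction between the forms without overlap, called members of the other lists or their 4 highest, the 5 genes of smallest p for injury in each form and direction, and the 5 of smallest p for the interaction. Gm23935 and Gm26802 were added for their values.

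Replicate numbers were checked for pairing by the correlation of deviations from the group means, which was 0.08, −0.01, −0.02, 0.04 and 0.04 for numbers 1 to 5, so they were not taken as pairs. Alternatives were DESeq2 1.42.0, RLE factors, other filters and thresholds, robust empirical Bayes, other model terms, a fit of each form alone, a replicate block, and leaving out each library. DESeq2 gave no adjusted p to 6574 genes for injury in J-A libraries and 7792 for the interaction, and these count as not called there.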

Additional observations from a re-analysis of the deposited data

Results flagged for a closer look

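Among 92 groups of M or J-A libraries over 46 named genes, 5 held a library far from the others, and chance alone gives such a gap in about 5% of groups. FPI J-A replicate 5 had the highest AY036118 (713 CPM, with the next at 459 CPM), the lowest Rn7s1 (1184 CPM, with the next at 1800.0 CPM) and the lowest Hspa1a (21.2 CPM, with the next at 46.2 CPM) of the J-A libraries. Lcn2 was 0.543 CPM there and 0 in the other 3 J-A libraries. Colec12 was 3.38 CPM in FPI M replicate 3, with the next M library at 8.12 CPM.

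The injury effect differed between the name forms for 2 genes in the interaction test of edgeR, for Csf1 by −1.86 (SE 0.30, adjusted p = 0.0423) and for Gfap by −3.92 (SE 0.66, adjusted p = 0.0423), both lower in J-A libraries. Csf1 was higher in 3 of 3 M FPI libraries than in any M sham library, and the J-A libraries overlapped.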

How the results depend on the processing

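Genes called between the forms numbered 75, and 122 in DESeq2, 135 with every gene that had a count, 44 without the injury term, 32 in FPI libraries alone and 47 to 82 with 1 library left out (47 without FPI replicate 4, 48 without sham replicate 5). Injury calls in J-A libraries numbered 62, and 204 in DESeq2, 264 with every gene, 99 with these libraries fitted alone, 37 at an adjusted p below 0.05 with no minimum fold, and 0 to 218 with 1 left out. In M libraries they numbered 399, and 227 to 528 with 1 left out. With the form as a term, 311 became 193 to 450. The interaction gave 2 genes, and 138 in DESeq2, 152 with every gene, 9 at 10 or more counts in every library, and 0 to 78 with 1 left out (78 without FPI replicate 2, 67 without FPI replicate 4). The cause of these changes was not tested. On raw totals the log2 ratio of the forms was −0.34 for the circadian and −0.24 for the sex chromosome list sum, against −0.21 and −0.12.

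With 1 library left out, the interaction ran from −0.32 to 0.81 for Apoe and from −0.12 to 0.52 for Lgals3bp, changing sign without FPI replicate 5, and from −0.73 to 0.07 for Ifi204, changing sign without sham replicate 2 (0.06) or FPI replicate 4 (0.072). No other called gene or interaction value that was followed reversed. Genes that were not called were not followed, apart from the interaction and Hspa1a. Some list medians changed sign. For injury in J-A libraries, the homeostatic median went from 0.09 to −0.03 without FPI replicate 5. The astrocyte median there went from −0.09 to 0.47 without sham replicate 4. Between the forms, the interferon median went from 0.06 to −0.07 without FPI replicate 5. With a replicate block the counts were 251 for injury, 361 in M libraries, 77 in J-A libraries and 2 for the interaction. No block could be fitted for the contrast of the forms, since each number lies in 1 form. Depth limits genes with few counts in the J-A libraries, such as Pf4 and Lcn2.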
